A study of Mus musculus with 6 samples.

Results

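Of the genes measured on these arrays, 10 that leukocytes express were described: Ptprc, which encodes the CD45 antigen, the integrin chains Itgb2, Itgal, Itgam, Itga4 and Itgb7, and Coro1a, Laptm5, Cd53 and Vav1. They are 10 of 18193 genes that have a probe set naming only that gene. The genes are known to be expressed mainly or widely in blood cells, and both sorted populations were gated as CD45-negative. Each gene was represented by whichever of its probe sets averaged highest across the 6 arrays, and the 10 genes have 24 probe sets in all. The genes were chosen by their log2 values on these same arrays, in both populations and in Tie2-positive replicate 1 against replicates 2 and 3. Levels are therefore given as a description, the tests between populations carry no independent weight, and no test is given of the difference between single arrays.

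Cells came from the fore and hind limbs of mice at postnatal day 3, with the limbs of a litter pooled and digested with collagenase. The Tie2-positive population (3 arrays) was, by its titles, Tie2-positive with a low level of integrin alpha V, after exclusion of CD45 and Ter119. The Tie2-negative population (3 arrays) was negative for integrin alpha V and Tie2 after the same exclusion. Tie2 is the angiopoietin receptor of endothelial cells, encoded by Tek, and Ter119 is an antigen of red-cell precursors. All samples are labelled wild type, while the growth protocol speaks of GFP-labelled mice. The listed antibodies include one against CD45 and none against Ter119. Whether each sample of a population is a litter of its own is not stated, so p-values reflect only how far these samples differ among themselves, and that spread may be technical. RNA went through a double round of amplification before hybridisation to Affymetrix mouse expression arrays. All values are log2 array values after quantile normalization, differences are Tie2-positive minus Tie2-negative, and a gene is called at a limma adjusted p under 0.05. Tie2-positive replicate 1 stood apart from the other Tie2-positive arrays, and the counts it moves are also given without it. In bulk RNA, fewer cells of a type and less RNA per cell cannot be told apart.

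CD45 is a transmembrane tyrosine phosphatase of nucleated blood cells that removes the inhibitory phosphate of Src family kinases. Integrins are pairs of an alpha and a beta chain. The beta2 chain (Itgb2) joins alphaL (Itgal) or alphaM (Itgam) to bind ICAM proteins, and neutrophils and monocytes carry much alphaM. The alpha4 chain (Itga4) pairs with beta1 to bind VCAM1 and fibronectin, or with beta7 (Itgb7) to bind MAdCAM1, and is found on blood-forming progenitors, erythroblasts and lymphocytes. Signals inside the cell switch integrins to their binding state through talin and kindlin-3 (Fermt3), and the integrins are linked to actin.

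Many leukocyte genes, Itgam among them, are activated by the transcription factor PU.1, whose core motif is GAGGAA. RefSeq promoter windows (GRCm38.p6, 250 bases before to 50 after the start of a gene) were matched for 8 of the 10 genes, all except Itgb2 and Itgal, in 10 windows. The motif or its reverse complement TTCCTC occurred in 6 of these 10 windows (60.0%), and in 9289 of 32851 windows of all genes (28.3%). Itgam had 3 matches and Cd53 had 2, while Ptprc (in 1 of its 2 windows), Itgb7, Laptm5 and Vav1 had 1 each. Windows with at least 2 matches made up 4.82% of all windows. The windows of Itga4 and Coro1a held none, which says only that these letters are not in the windows. Windows of Ptprc, Laptm5, Cd53 and Itgam are shown as examples from those with a match, and capitals mark the motif on either strand. They were not chosen by spread between Tie2-positive arrays. Coro1a, without a match, had the largest gap between its highest and lowest Tie2-positive array of the 10 genes (6.64), and Itga4, also without one, had 4.13.
Ptprc, chr1:138175256-138175555, minus strand: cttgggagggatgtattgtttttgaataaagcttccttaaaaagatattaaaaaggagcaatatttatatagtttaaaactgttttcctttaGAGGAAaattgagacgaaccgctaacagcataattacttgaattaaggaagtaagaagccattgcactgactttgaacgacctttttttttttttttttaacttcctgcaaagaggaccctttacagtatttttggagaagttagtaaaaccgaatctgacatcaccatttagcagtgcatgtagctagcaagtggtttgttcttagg
Laptm5, chr4:130913066-130913365, plus strand: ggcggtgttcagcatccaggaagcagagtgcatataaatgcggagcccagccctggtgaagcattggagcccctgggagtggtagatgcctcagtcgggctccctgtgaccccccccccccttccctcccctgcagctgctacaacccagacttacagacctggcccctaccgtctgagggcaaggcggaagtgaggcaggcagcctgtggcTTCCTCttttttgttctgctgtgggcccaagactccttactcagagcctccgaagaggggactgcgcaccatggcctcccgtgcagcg
Cd53, chr3:106790100-106790399, minus strand: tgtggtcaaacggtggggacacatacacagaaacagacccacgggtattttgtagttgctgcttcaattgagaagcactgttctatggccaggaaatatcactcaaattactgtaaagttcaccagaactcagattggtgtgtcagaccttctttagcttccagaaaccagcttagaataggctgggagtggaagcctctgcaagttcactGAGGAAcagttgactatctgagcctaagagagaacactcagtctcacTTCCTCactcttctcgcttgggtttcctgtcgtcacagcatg
Itgam, chr7:128062390-128062689, plus strand: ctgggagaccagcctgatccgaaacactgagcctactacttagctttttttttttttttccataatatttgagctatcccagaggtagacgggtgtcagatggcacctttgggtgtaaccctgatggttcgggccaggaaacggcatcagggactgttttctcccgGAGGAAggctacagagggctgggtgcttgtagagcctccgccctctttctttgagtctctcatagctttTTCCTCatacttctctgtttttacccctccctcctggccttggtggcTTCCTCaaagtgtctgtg
The match in the Ptprc window begins at base -158 from the start site and that of Laptm5 at base -38. A match is a description of the sequence and does not show binding.

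The CD45 gene read between 9.42 and 11.23 in 5 of the 6 CD45-negative samples and 4.87 in the remaining 1. Its values were 4.87, 9.95 and 11.23 in Tie2-positive replicates 1, 2 and 3, and 9.52, 10.41 and 9.42 in the Tie2-negative samples. The populations overlapped, since Tie2-positive replicate 1 lay below all Tie2-negative samples and replicate 3 lay above them. The means were 8.68 ± 3.36 in the Tie2-positive and 9.79 ± 0.55 in the Tie2-negative population (SD, n = 3 each). The difference of -1.11 ± 1.52 (SE) had a 95% interval from -4.72 to 2.51 and was not called (limma adjusted p = 0.650). A second probe set of Ptprc read low everywhere, between 4.13 and 5.36 in Tie2-positive and between 4.48 and 5.23 in Tie2-negative samples. Transcript level does not show the amount of CD45 protein on the surface, which was gated and is not analysed here.

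The other 9 genes were likewise not called. Of the 10, 0 were called higher and 0 lower in the Tie2-positive population by limma, with adjusted p between 0.213 and 0.918, and 0 had an unadjusted p under 0.05. Among all 18193 genes 7.39% were called, 4.86% higher and 2.53% lower. Leaving out Tie2-negative replicate 1 or 2, or adding a replicate block, left 0 of the 18193 genes called by limma, so every call given below from all 6 arrays is lost in those fits (2383 higher and 2697 lower at an unadjusted p under 0.05 with the block). The median difference over the 10 genes was -0.27, against -0.11 over all genes. The intervals were wide: for 7 of the 10 genes they spanned over 4 log2 units, so large differences lie within them. For Ptprc these were in either direction, while the interval of Itga4 reached from -4.90 to 0.29 and that of Itgal from -1.11 to 3.61. The values that chose the genes include their spread among Tie2-positive arrays, which is described without a test. The gap between its highest and lowest array had a median of 4.46 over the 10 genes and of 0.44 over all genes, while the gap among Tie2-negative arrays had medians of 0.93 and 0.41.

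**Figure D1:**
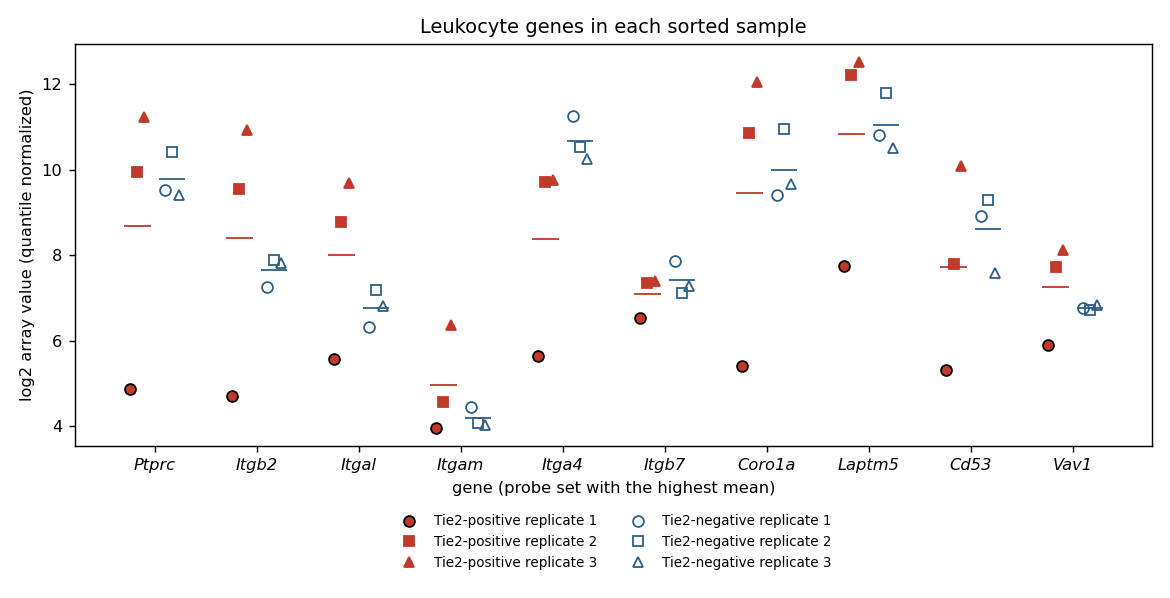
Log2 array values (vertical axis, quantile normalized) of the 10 leukocyte genes in the 3 Tie2-positive (filled, left of each pair) and 3 Tie2-negative samples (open, right), 1 point per array with a line at each mean. Tie2-positive replicate 1 (black outline) is the lowest of the 6 arrays for all 10 genes.

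In all 10 genes Tie2-positive replicate 1 was the lowest of the 6 arrays, which held for 30.6% of all genes. In 7 of the 10 genes it lay at least 4-fold (2 on the log2 scale) below both other Tie2-positive arrays, against 1.95% of all genes (354 genes), and 0 of the 10 lay 4-fold above both (0.874% of all genes). The values themselves led to this comparison, so the counts are a description. Just inside was Cd53, with replicate 1 minus replicate 2 at -2.49 and replicate 1 minus replicate 3 at -4.78. Just outside was Vav1, with -1.82 and -2.22 in the same order. The differences of Itgam were -0.60 and -2.40, and those of Itgb7 were -0.81 and -0.87. Of the 24 probe sets, 23 read lower in replicate 1 than in both other Tie2-positive arrays, and 12 did so by at least 2. Over all genes, replicate 1 was below both in 7324 (40.3%). Replicate 3 was above replicate 2 in all 10 genes, and 8 genes in replicate 3 and 5 in replicate 2 lay above every Tie2-negative sample. For these counts, and for the 12 probe sets, the share over all genes or probe sets was not computed. They are therefore not read as a trait of the 10 genes.

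**Figure D2:**
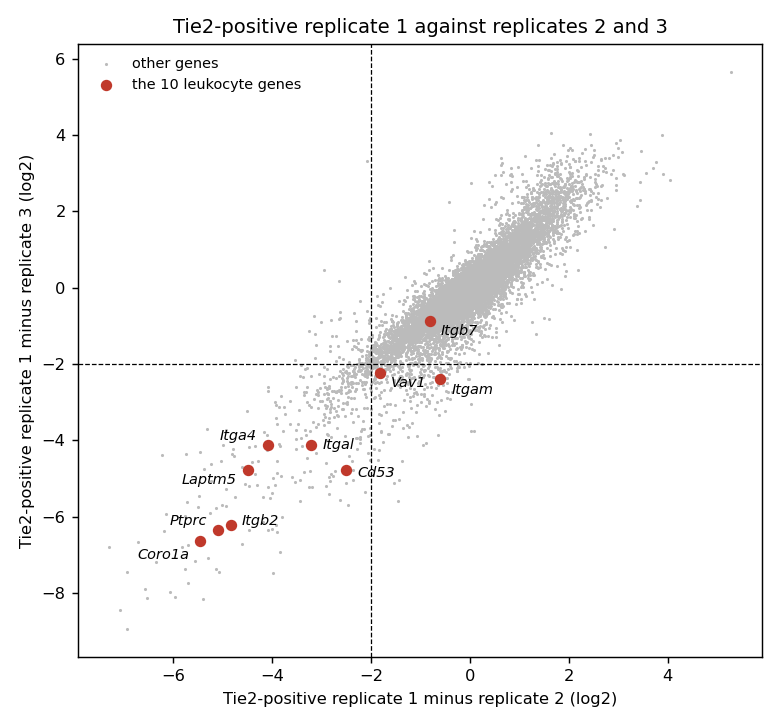
Log2 value of Tie2-positive replicate 1 minus replicate 2 (horizontal axis) and minus replicate 3 (vertical axis), 1 grey point per gene and the 10 leukocyte genes in red. Dashed lines mark a 4-fold decrease, and 7 of the 10 genes lie in the lower left field, with Vav1, Itgam and Itgb7 outside it.

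Itgb2, Itgal and Itgam were each highest in Tie2-positive replicates 2 and 3. Itgb2 had values of 4.72, 9.54 and 10.94 in Tie2-positive replicates 1, 2 and 3, and of 7.25, 7.89 and 7.83 in the Tie2-negative samples. Both high arrays stood above every Tie2-negative array and the low one below them. Its difference was 0.74 ± 1.46 (SE; 95% interval from -2.74 to 4.22; limma adjusted p = 0.755). Its partner Itgal had 5.58, 8.78 and 9.70 in Tie2-positive replicates 1, 2 and 3, against 6.32, 7.18 and 6.80 in the Tie2-negative samples, in the same arrangement. Its difference was 1.25 ± 0.99 (SE; limma adjusted p = 0.425). A second probe set of Itgal read between 5.26 and 5.88 in Tie2-positive and between 5.55 and 5.65 in Tie2-negative samples.

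Itgam, the alphaM chain, had 3.97, 4.56 and 6.37 in Tie2-positive replicates 1, 2 and 3, against 4.46, 4.08 and 4.04 in the Tie2-negative samples. Tie2-positive replicate 3 was the highest array, and the other 5 lay between 3.97 and 4.56. The difference was 0.77 ± 0.57 (SE; limma adjusted p = 0.391). Itgam has 1 probe set here, and the files carry no detection calls, so whether its low values lay above background was not analysed.

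The alpha4 chain followed another order. Itga4 had 5.63, 9.72 and 9.77 in Tie2-positive replicates 1, 2 and 3, and 11.26, 10.52 and 10.25 in the Tie2-negative samples. It was the single gene of the 10 whose populations did not overlap, all Tie2-positive samples lying below all Tie2-negative samples, which held for 23.9% of all genes (39.1% did not overlap in either direction). The difference of -2.31 ± 1.09 (SE; 95% interval from -4.90 to 0.29) was not called (limma adjusted p = 0.213). Its other 4 probe sets gave differences from -1.55 to -0.54. Without Tie2-positive replicate 1 the difference was -0.94 (limma adjusted p = 0.0963).

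Itgb7, the partner of alpha4 in the receptor for MAdCAM1, varied least of the 10 genes among Tie2-positive arrays. It had 6.53, 7.34 and 7.40 in Tie2-positive replicates 1, 2 and 3, against 7.87, 7.12 and 7.28 in the Tie2-negative samples. The difference was -0.33 ± 0.32 (SE; 95% interval from -1.10 to 0.44; limma adjusted p = 0.520). Itgb1, the other partner of alpha4, is not restricted to blood cells and had 9.73, 8.82 and 8.89 in Tie2-positive replicates 1, 2 and 3, against 8.78, 9.11 and 9.24 in the Tie2-negative samples. Here replicate 1 was the highest of the 6 arrays, and the difference was 0.10 ± 0.31 (SE; limma adjusted p = 0.849).

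Coro1a and Vav1 act on the actin skeleton beneath the leukocyte membrane. Coro1a, an actin-binding coronin, had 5.41, 10.87 and 12.05 in Tie2-positive replicates 1, 2 and 3, and 9.40, 10.95 and 9.67 in the Tie2-negative samples. Its arrangement was that of Ptprc, with 1 Tie2-positive array far below the rest. The difference was -0.56 ± 1.62 (SE; limma adjusted p = 0.836). Of its 3 probe sets, a second gave nearly the same difference (-0.59) and the third lay between 3.51 and 3.99 on all arrays. Vav1, a signalling protein of blood cells that acts downstream of antigen receptors, had 5.91, 7.73 and 8.13 in Tie2-positive replicates 1, 2 and 3, against 6.77, 6.71 and 6.85 in the Tie2-negative samples. The Tie2-negative samples lay within 0.13 of each other, with the Tie2-positive samples on both sides of them. The difference was 0.48 ± 0.55 (SE; limma adjusted p = 0.582), and its second probe set gave 0.49.

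Laptm5, a lysosomal membrane protein that limits antigen receptor levels in lymphocytes, had 7.74, 12.23 and 12.52 in Tie2-positive replicates 1, 2 and 3, and 10.82, 11.81 and 10.50 in the Tie2-negative samples. Its difference of -0.22 ± 1.23 (SE) was not called (limma adjusted p = 0.918). The 5 probe sets of Laptm5 disagreed. One gave a difference of -1.37 (limma adjusted p = 0.0434 with all probe sets tested), with 6.42, 6.88 and 6.99 in Tie2-positive replicates 1, 2 and 3 against 7.67, 8.46 and 8.27 in the Tie2-negative samples. The remaining 3 gave differences from 0.18 to 0.31. Cd53, a tetraspanin of leukocytes, had 5.31, 7.80 and 10.09 in Tie2-positive replicates 1, 2 and 3, against 8.92, 9.29 and 7.60 in the Tie2-negative samples. Its Tie2-positive values bracket the Tie2-negative ones, and the difference was -0.87 ± 1.14 (SE; limma adjusted p = 0.635).

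Without Tie2-positive replicate 1, the population difference was positive for 8 of the 10 genes, and limma called 3 of them higher and 0 lower, against 8.22% and 3.58% of all genes. The called genes were Itgb2 (2.58 ± 0.43, SE; adjusted p = 0.0109), Itgal (2.47 ± 0.36, SE; adjusted p = 0.00699) and Vav1 (1.15 ± 0.21, SE; adjusted p = 0.0163). Ptprc changed sign to 0.80 ± 0.44 (SE; 95% interval from -0.25 to 1.85; limma adjusted p = 0.276). Coro1a, Laptm5 and Cd53 also changed sign, to 1.46, 1.33 and 0.34, and were not called. Itga4 and Itgb7 stayed negative, at -0.94 and -0.05. These 3 calls rest on 2 Tie2-positive arrays, after leaving out the array that stood apart in the same genes.

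**Figure D3:**
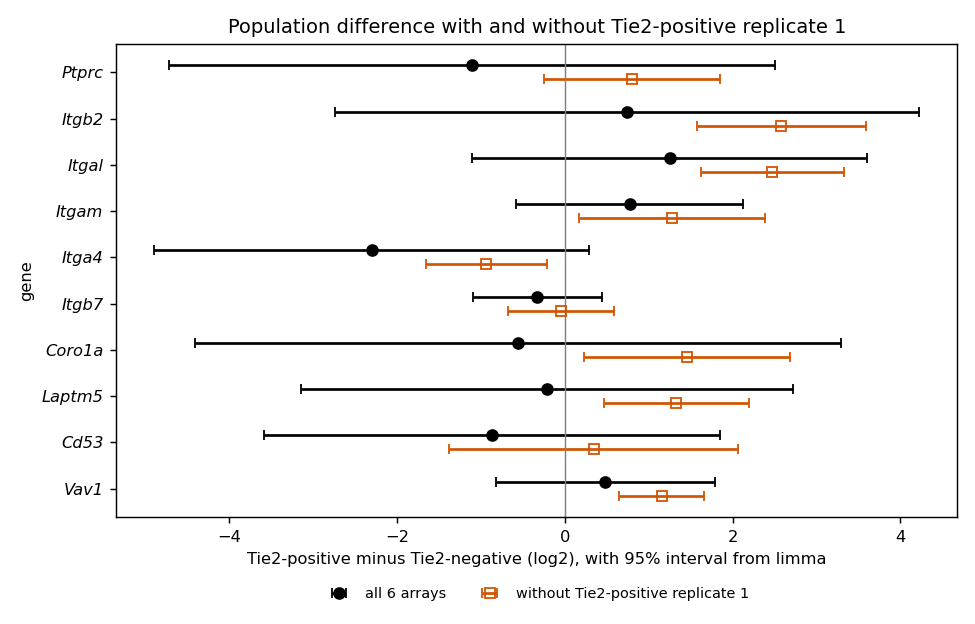
Tie2-positive minus Tie2-negative difference (log2, horizontal axis) with its 95% interval from limma for each gene (vertical axis), from all 6 arrays (black) and without Tie2-positive replicate 1 (orange). With all arrays every interval spans 0, and without that array those of Itgb2, Itgal and Vav1, the called genes, lie wholly above 0, as do those of Itgam, Coro1a and Laptm5, which were not called.

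By root mean square difference between profiles over the 6 arrays, each gene centred on its own mean, the gene nearest to Ptprc was Coro1a (0.35). Next came Arhgap15 (0.36), a GTPase-activating protein for Rac, Stk26 (0.40), a protein kinase, Rac2 (0.46), the Rac GTPase of blood cells, and Dock10 (0.49). Rac2 had 6.06, 9.998 and 11.23 in Tie2-positive replicates 1, 2 and 3, against 9.73, 10.24 and 9.40 in the Tie2-negative samples. Among the other 8 genes, Laptm5 ranked at 11 in nearness to Ptprc, Cd53 at 33, Itgb2 at 48 and Itga4 at 56 among all other genes. Itgal ranked at 289, Vav1 at 576, Itgam at 1651 and Itgb7 at 1966. Itgb2 and Itgal were each other's nearest gene among the 10 (0.69), as were Itgam and Vav1 (0.49). The measure was not scaled to the spread of a gene, so genes that vary little can lie near each other. It also includes Tie2-positive replicate 1, whose values helped to choose the 10 genes. Nearness is therefore a description and does not show shared regulation.

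Several relatives of these genes that are not restricted to blood cells were not lowest in Tie2-positive replicate 1. Rac1, the Rac GTPase of most cells, rose in the Tie2-positive population by 1.05 ± 0.17 (SE; limma adjusted p = 0.0200), with 11.84, 11.75 and 11.70 in Tie2-positive replicates 1, 2 and 3, against 10.54, 10.89 and 10.70 in Tie2-negative samples. Vav3, a relative of Vav1, rose by 2.12 ± 0.26 (SE; limma adjusted p = 0.0123), while Vav2 had a difference of -0.27 and was not called. Laptm4b, a relative of Laptm5, rose by 2.93 ± 0.45 (SE; limma adjusted p = 0.0179), with 12.32, 10.75 and 10.71 in Tie2-positive replicates 1, 2 and 3. Replicate 1 was the lowest Tie2-positive array for none of Rac1, Vav3 and Laptm4b. The coronins Coro1b, Coro1c and Coro7 had differences of 0.80, 1.24 and 0.07 and were not called. An exception was Itgb3, a chain also found on platelets, with replicate 1 minus replicates 2 and 3 at -2.70 and -1.93. Rac1 did not pass when its probe sets were averaged or when those shared between transcripts were dropped (limma adjusted p = 0.0744 and 0.133), nor after omission of Tie2-positive replicate 2 (0.0649), nor of the Tie2-negative replicate 3 (0.0700). Laptm4b did not pass without Tie2-negative replicate 3 (0.0604).

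**Figure D4:**
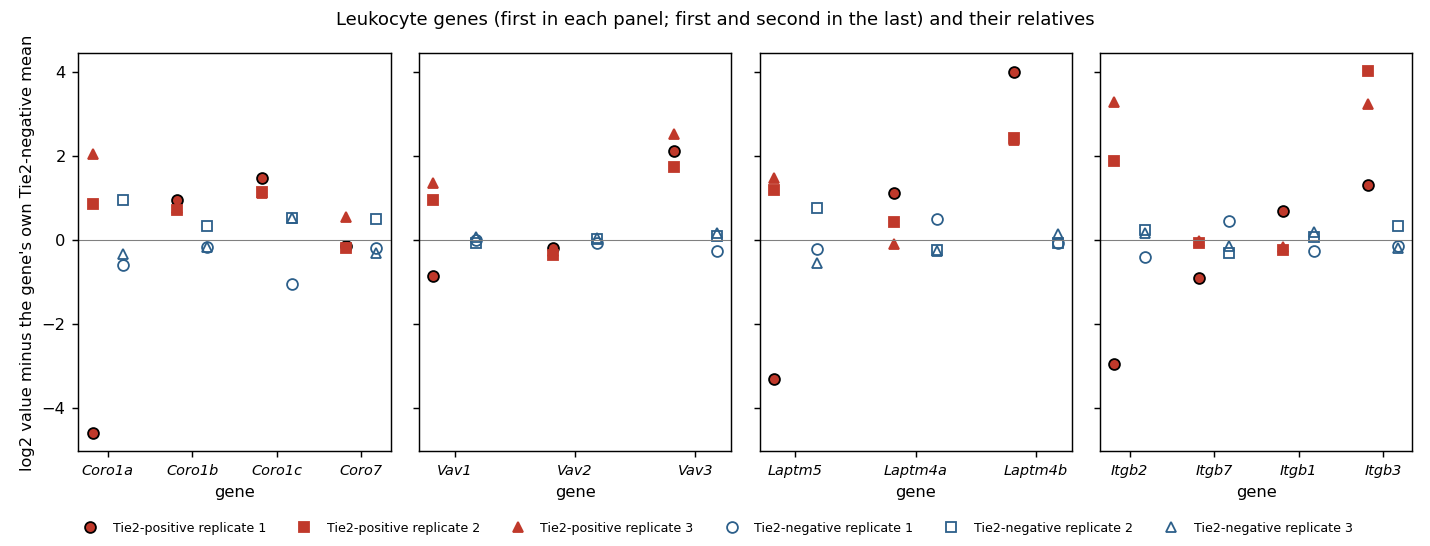
Log2 value minus the gene's own Tie2-negative mean (vertical axis) for Coro1a, Vav1, Laptm5, Itgb2 and Itgb7 and relatives of each, in Tie2-positive (filled) and Tie2-negative samples (open), 1 point per array. Tie2-positive replicate 1 (black outline) lies at -4.59 for Coro1a and -3.31 for Laptm5, against 0.94 for Coro1b and 3.99 for Laptm4b.

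Of 15 measured kinases, adaptors and other signalling genes around CD45, 1 rose and 1 fell (median difference -0.24). Without Tie2-positive replicate 1, limma called 4 of the 15 higher and 1 lower. Fyn, a Src family kinase also present outside the blood, rose by 1.95 ± 0.36 (SE; limma adjusted p = 0.0279), and Blk, the Src family kinase of B-lineage cells, fell by 1.75 ± 0.31 (SE; limma adjusted p = 0.0258). Replicate 1 lay at least 4-fold below both other Tie2-positive arrays in 6 of the 15. Ptpn6, the phosphatase SHP-1 of blood cells, was one of these, with 7.84, 10.43 and 11.02 in Tie2-positive replicates 1, 2 and 3, with Tie2-negative samples between 9.41 and 10.27. Neither Fyn nor Blk passed without Tie2-positive replicate 2 (limma adjusted p = 0.0789 and 0.0748), Blk did not without Tie2-positive replicate 3 (0.0527), and Fyn did not without Tie2-negative replicate 3 (0.0882).

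Among 14 genes of integrin activation, 1 rose and 0 fell (median difference -0.06), and 3 were called higher without Tie2-positive replicate 1. Rap1b, a GTPase that acts upstream of talin, rose by 1.29 ± 0.16 (SE; limma adjusted p = 0.0125), with between 12.57 and 12.99 in the Tie2-positive against 11.34 to 11.59 in Tie2-negative samples. Replicate 1 was 4-fold low in 5 of the 14. Fermt3, the kindlin of blood cells, had 6.50, 12.63 and 12.42 in Tie2-positive replicates 1, 2 and 3, against 11.45, 11.67 and 11.68 in the Tie2-negative samples, while talin (Tln1) had 9.77, 10.05 and 9.87 in the Tie2-positive samples against 9.24 to 9.52 in Tie2-negative samples. The low value of Fermt3 in replicate 1 thus had no counterpart in Tln1.

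Of 15 genes of surface and lysosomal proteins, 1 rose (Laptm4b) and 1 fell (Cd82, a tetraspanin, by 1.74 ± 0.37, SE; limma adjusted p = 0.0422), with a median difference of -0.05, and replicate 1 was 4-fold low in 9. Without Tie2-positive replicate 1, 5 of these 15 were called higher and 1 lower. Cd82 did not pass with arrays centred on their medians (limma adjusted p = 0.0528). Nor did it pass without Tie2-positive replicate 2 (0.117), without Tie2-positive replicate 3 (0.0557) or without Tie2-negative replicate 3 (0.0653). Of 9 leukocyte transcription factors, Fli1, also a factor of endothelial cells, rose by 3.28 ± 0.37 (SE; limma adjusted p = 0.0105) and 0 fell (median difference -0.21), and 2 were called higher without Tie2-positive replicate 1. Ikzf1 (Ikaros, a factor of the lymphoid lineage) and Myb (a factor of blood progenitors) were among the 3 with a 4-fold low replicate 1. Myb had 4.46, 11.39 and 11.90 in Tie2-positive replicates 1, 2 and 3, against 11.07, 11.41 and 11.21 in the Tie2-negative samples. Spi1, which encodes PU.1, had 6.30, 7.16 and 8.91 in Tie2-positive replicates 1, 2 and 3, with Tie2-negative samples between 6.92 and 7.44.

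Of 9 measured integrin chains beyond the 5 above, 3 rose and 0 fell (median difference 0.32), and replicate 1 was 4-fold low in 1, the platelet chain Itga2b. The count of 3 was 4 without Tie2-positive replicate 1 and 1 without Tie2-negative replicate 3. Itga6, a laminin-binding chain of endothelium and platelets, rose by 3.41 ± 0.43 (SE; limma adjusted p = 0.0125). Itgb3, the partner of Itga2b and of alpha V, rose by 2.84 ± 0.65 (SE; limma adjusted p = 0.0482). Averaging its probe sets ended the call of Itgb3 (limma adjusted p = 0.0704), as did testing all probe sets (0.0512), leaving out the trend (0.0541), robust estimation (0.0508), and omitting Tie2-positive replicate 2 (0.0997), Tie2-positive replicate 3 (0.0939) and Tie2-negative replicate 3 (0.131). Itgav, which was used in the sort, rose by 1.76 ± 0.26 (SE; limma adjusted p = 0.0158), and missed the threshold when its probe sets were averaged (0.0894) or without Tie2-negative replicate 3 (0.0579). The alphaX chain Itgax and the alphaE chain Itgae, partners of beta2 and beta7, had differences of -0.29 and -0.24 and were not called.

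Of 11 measured genes for ligands of these integrins, 5 rose and 0 fell, with a median difference of 2.43 against -0.11 over all genes. Vcam1, the ligand of alpha4 beta1, rose by 6.21 ± 0.69 (SE; limma adjusted p = 0.0104), with 11.08, 10.46 and 9.88 in Tie2-positive replicates 1, 2 and 3 and 3.52, 3.40 and 5.87 in the Tie2-negative samples. Icam2, a ligand of alphaL beta2 on endothelium, rose by 2.90 ± 0.48 (SE; limma adjusted p = 0.0218), with 11.70, 10.72 and 9.88 in Tie2-positive replicates 1, 2 and 3, with Tie2-negative samples between 7.36 and 8.18. For both genes the order of the 3 Tie2-positive arrays was opposite to that of Ptprc and Itgb2. The junction proteins F11r (4.28 ± 0.61, SE) and Jam2 (3.80 ± 0.87, SE) also rose, as did Fn1, which encodes fibronectin (2.43 ± 0.45, SE; limma adjusted p = 0.0149, 0.0489 and 0.0291 in this order). Icam1 (2.61 ± 0.71, SE) and Madcam1 (1.86 ± 0.46, SE) did not pass (limma adjusted p = 0.0740 and 0.0601). Icam4, a red-cell ligand, had a difference of -2.67 ± 0.88 (SE; limma adjusted p = 0.113), with all Tie2-positive below all Tie2-negative samples, and Fgb, a fibrinogen chain, had -0.05. Jam2 was not called in 4 settings that kept all arrays (limma adjusted p from 0.0515 to 0.0760), nor Fn1 when its probe sets were averaged (0.0559). The count of 5 was 8 without Tie2-positive replicate 1, 7 without Tie2-positive replicate 3, 3 without Tie2-positive replicate 2 and 1 (Vcam1) without Tie2-negative replicate 3.

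Medians of blood-lineage marker lists were set beside the leukocyte genes, whose own median lay between 7.71 and 8.59 in the Tie2-negative samples. The 13 neutrophil and monocyte markers had medians of 5.98, 11.21 and 13.34 in Tie2-positive replicates 1, 2 and 3, the order seen for Ptprc, Itgb2 and Itgam, against 6.07 to 7.80 in Tie2-negative samples. Replicate 1 was 4-fold low in 10 of the 13, and limma called 0 of them with all arrays and 11 higher without replicate 1. The 8 mast cell and basophil markers had medians of 5.53, 8.86 and 10.40 in Tie2-positive replicates 1, 2 and 3, and at most 5.94 in the Tie2-negative samples, and 1 was called higher with all arrays against 5 without replicate 1. The 9 megakaryocyte and platelet markers had medians of 6.20, 8.79 and 7.79 in Tie2-positive replicates 1, 2 and 3, and at most 5.93 in the Tie2-negative samples, an order other than that of Ptprc. Of these 9, 3 were called higher with all arrays, 6 without Tie2-positive replicate 1, 2 without Tie2-positive replicate 3 and 1 without Tie2-negative replicate 3. Among them Vwf, also made by endothelium, was highest in replicate 1, at 11.52. The median of 12 B-lineage markers lay between 5.45 and 5.85 in the Tie2-positive against 7.75 to 10.13 in Tie2-negative samples, and 7 of the 12 were called lower in the Tie2-positive population (4 without Tie2-positive replicate 2). Ebf1 of this list was not called and went another way in replicate 1. It had 8.98, 6.09 and 5.88 in Tie2-positive replicates 1, 2 and 3, against 7.60 to 9.60 in Tie2-negative samples. The 12 erythroid markers had medians of 6.08, 8.61 and 5.95 in Tie2-positive replicates 1, 2 and 3, with Tie2-negative samples between 11.26 and 12.38, and 8 of the 12 were called lower in the Tie2-positive population (4 without Tie2-negative replicate 3). All genes called lower numbered 461 with all arrays, 129 without Tie2-positive replicate 2 and 127 without Tie2-negative replicate 3. Medians of T and NK cell markers (10 genes) lay between 5.34 and 5.85 on all arrays, and those of macrophage and osteoclast markers (12 genes) between 5.66 and 6.26, but single markers in both lists differed more. Nkg7, a granule protein of NK and T cells, had 5.04, 9.35 and 10.20 in Tie2-positive replicates 1, 2 and 3, against 5.33 to 6.30 in Tie2-negative samples, and was not called. Mrc1, the macrophage mannose receptor, rose by 4.89 ± 0.79 (SE; limma adjusted p = 0.0205). Of the 12 macrophage and osteoclast markers it was the only 1 called higher, and their median difference was -0.055. Mrc1 was highest in Tie2-positive replicate 1 and lowest in Tie2-positive replicate 3, the order of the endothelial marker medians given below. Which cells the Mrc1 signal came from was not tested. Acp5, the acid phosphatase of osteoclasts, had a difference of -3.67 ± 0.61 (SE; limma adjusted p = 0.0218), and Cd2 of T and NK cells was also called lower. Mrc1 lost its call without Tie2-positive replicate 2 (limma adjusted p = 0.0628) and, with Acp5, without Tie2-negative replicate 3 (0.0699 and 0.0602), and Cd2 lost it without Tie2-positive replicate 2 (0.0946) or Tie2-positive replicate 3 (0.0525). The part of these cell types in the values of the 10 genes was not tested.

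**Figure D5:**
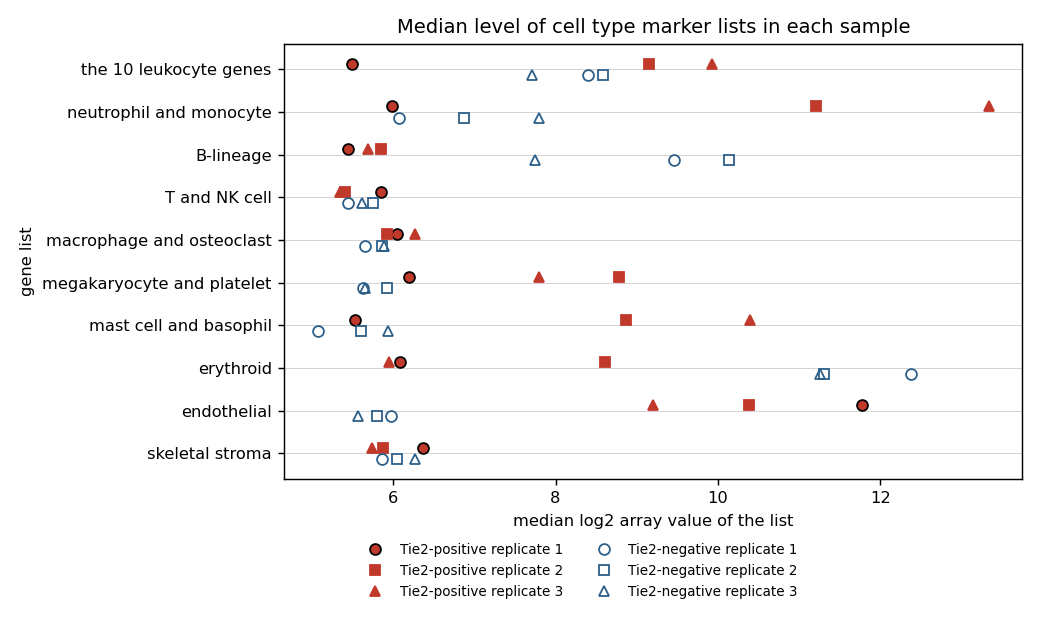
Median log2 array value (horizontal axis) of the 10 leukocyte genes and of 9 cell type marker lists (vertical axis) in each Tie2-positive (filled, upper row of each pair) and Tie2-negative sample (open, lower row). The leukocyte genes are lowest in Tie2-positive replicate 1 (black outline), at 5.49, where the endothelial markers are highest, at 11.78.

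The sort labels and array quality were checked in the same samples. Tek, the gene of the gated Tie2 antigen, had 12.06, 10.86 and 9.80 in Tie2-positive replicates 1, 2 and 3, with Tie2-negative samples between 4.79 and 4.90. In a list of 7 genes of surface antigens, 3 rose (Tek, Cd200 and Itgav) and 1 fell (Enpep, the 6C3 antigen). The sample titles name CD45, Ter119, integrin alpha V and Tie2, and neither Cd200 nor Enpep encodes one of these. Their changes are therefore not read as a check of the sort. The 12 endothelial markers had medians of 11.78, 10.39 and 9.20 in Tie2-positive replicates 1, 2 and 3 and at most 5.98 in the Tie2-negative samples. Replicate 1 thus had the highest median of the endothelial markers and the lowest of the 10 leukocyte genes. The median of the T and NK cell markers was highest in replicate 1 (5.85), but it lay between 5.34 and 5.85 on all arrays. Such low values may lie near background, and the marker Nkg7 of that list was lowest in replicate 1. That median is therefore not read as a departure from the order of the 10 genes. The median of 13 skeletal stroma markers lay between 5.75 and 6.36 on all arrays. No stroma marker was called with all arrays, and 1 was called higher without Tie2-positive replicate 1. Single stroma markers differed more, and replicate 1 was 4-fold low in 1 of the 13, Col3a1. It had 7.96, 10.11 and 11.45 in Tie2-positive replicates 1, 2 and 3, against 6.16 to 9.08 in Tie2-negative samples. Over genes, Tie2-positive replicate 1 correlated with replicates 2 and 3 at 0.929 and 0.898, and these with each other at 0.980, while Tie2-negative arrays correlated at 0.969 to 0.983. For Actb and Gapdh together, control probe sets at the 3' end exceeded those at the 5' end by 1.87, 1.55 and 1.44 in Tie2-positive replicates 1, 2 and 3, against 1.82 to 2.00 in Tie2-negative samples. This excess is a usual measure of RNA degradation, but here it was taken after the double round of amplification and is not read as degradation alone. Its part in the results was not tested.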

How the data were processed

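Gene expression was measured in 6 sorted samples on Affymetrix mouse arrays, scanned with GCOS 1.1.1 per the labels' protocols. The authors deposited 1 log2 value per probe set and array, whose scale was inferred from its range. The summarisation and normalization behind them are not given in the sources used here. The table held 45101 probe sets, of which 64 controls were left out of the tests. Names came from the platform annotation. Of the other probe sets, 34945 carried 1 symbol, 932 several (not named) and 9160 were unnamed here, and of the 34945, 34741 were in a RefSeq table (GRCm38.p6), which changed 0 symbols. Values were quantile normalized, which also removed a difference in 75th percentile between the populations (7.45 to 7.53 in Tie2-positive, 7.26 to 7.33 in Tie2-negative arrays). Populations were compared by limma 3.58.1 under R 4.3.3, using lmFit and trended eBayes on all 6 arrays without covariates. Two-sided p-values were adjusted by the Benjamini-Hochberg method across 18193 genes (threshold 0.05). Arrays have no read depth, and their number limits the precision. Identical values were found in 0 array pairs. The procedure was tested on simulated data, with independent noise of 1 SD per gene on all arrays. It recovered 26.9%, 72.5% and 87% of changes of 1, 2 and 3 log2 units, and 5.63% of its calls were false. The simulated data held no array that stood apart as Tie2-positive replicate 1 does, so they do not cover that case.

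The 10 genes and all gene lists were chosen with earlier results of these data known. Lists are described by counts and medians. The counts of 1 list are not reported here. From each pathway list the called genes with the largest change were named, at most 4 in each direction, or the 2 with the highest mean where none was called, while marker lists are given as medians and counts, with single markers named after their values were seen. Relatives of the 10 genes and list genes named for a low replicate 1 or for their role were chosen after their values were seen. Leaving out single arrays, other scalings, filters, choices of probe set and variance models were tried.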

Additional observations from a re-analysis of the deposited data

How the results depend on the processing

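No call was made for any of the 10 genes in the fit of all arrays, and this held as deposited, with arrays centred on their medians, without genes under the 40th percentile of mean level (Itgam among them), when a gene's probe sets were averaged, with all probe sets tested (for the probe sets used here), and without the trend or with robust estimation in limma. With array weights limma called 2 of the 10 genes higher, Itgal (1.88, adjusted p = 0.0313) and Vav1 (0.94, adjusted p = 0.0441), against 12% of all genes, and the differences of Coro1a (0.58), Itgb7 (0.017) and Laptm5 (0.91) turned positive. With probe sets shared between transcripts dropped, 1 was called lower, Laptm5 (-1.37, limma adjusted p = 0.0397), through another probe set. Among all genes limma called 884 higher and 461 lower, and 2177 and 2462 with array weights. With all probe sets tested it called 1525 and 721 probe sets. Leaving out each array in turn, the 10 genes called higher numbered 0 to 3 and those called lower 0 to 0, and all genes called higher numbered 0 to 1496 and lower 0 to 652. The lone array behind the 3 was Tie2-positive replicate 1. Over these fits the difference ran from -2.38 to 0.80 for Ptprc, from -1.86 to 1.46 for Coro1a, from -2.05 to 0.34 for Cd53, from -0.53 to 2.58 for Itgb2 and from -1.06 to 1.33 for Laptm5, each changing sign in at least 1 fit, and the sign of the other 5 genes did not change. In the fit with a replicate block, limma called 0 of the 10 genes and 0 of all genes in either direction (smallest adjusted p 0.0521, with 2383 higher and 2697 lower at an unadjusted p under 0.05). Deviations of same-numbered arrays correlated at 0.14, 0.005 and 0.186 for numbers 1, 2 and 3, and those of differently numbered arrays at -0.162 to 0.055. These values do not settle whether the numbers pair the samples, and the main fit took no pairing. The count of 7 genes with a low Tie2-positive replicate 1 was 7 as deposited or with arrays centred, and 6 with probe sets averaged or with those shared between transcripts dropped. The causes of these changes were not tested. The files carry no detection calls, so the smallest values may lie near background and differences from them may be compressed.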
